A study of Rattus norvegicus with 6 samples.

Results

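Wnt signaling in rat mammary tumors was described through 10 genes of the pathway, 3 ligands (Wnt5a, Wnt5b and Wnt10a), the secreted inhibitor Sfrp1, the transducer Ctnnb1, the transcription factors Lef1 and Tcf7, and the feedback targets Axin2, Nkd1 and Lgr5. They were the rows of the deposited table that carried these symbols, 1 row each, or 10 of 32545 rows. The tumors had been induced in female Sprague-Dawley rats by N-methyl-N-nitrosourea (MNU), an alkylating carcinogen, given intraperitoneally at 50 mg/kg when the animals were 21 days old. All 6 tumors came from MNU-treated rats. The DATS group (3 tumors) received diallyl trisulfide, an organosulfur compound of garlic, at 50 mg/kg by mouth in corn oil. The vehicle group (3 tumors) received 100 µL of corn oil by gavage. Dosing began 1 week after MNU and was given 5 times a week for 10 weeks. Whether each tumor came from its own rat is not stated in the labels, and the p-values therefore measure only the spread among these 6 tumors, part of which may be technical. The design sets the RNA of tumors grown under DATS against that of tumors grown under vehicle.

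Wnt proteins are secreted, lipid-modified ligands that bind Frizzled receptors. With the coreceptors Lrp5 and Lrp6 they keep beta-catenin, the product of Ctnnb1, from being destroyed, and beta-catenin then acts with the DNA-binding proteins of the TCF/LEF family, among them Lef1 and Tcf7. Axin2, Nkd1 and Lgr5 are transcribed in response, which makes their level a common readout of this branch in mouse and human tissue. Wnt5a and Wnt5b act largely through branches that do not need beta-catenin, with Ror2 as a receptor. In the mouse mammary gland Wnt signaling takes part in ductal growth and in the upkeep of basal progenitors, and Wnt1 was found as an oncogene of mouse mammary tumors.

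RNA was measured as FPKM, a fragment count divided by gene length and by a size value of each library, so that levels of different genes can be compared per length. The depth recovered from the values was 13531586 to 16868678 reads per tumor. The size value did not follow this depth. A read added more FPKM in DATS tumor 1 than in vehicle tumor 3, although DATS tumor 1 had more reads (14708336 against 13531586). The tumors expressed the defining genes of mammary epithelium: all 12 luminal and all 10 myoepithelial and basal markers had a row, and none was at 0 in all tumors. The summed luminal markers ranged from 2819 to 4472 FPKM in DATS tumors and from 2062 to 2696 FPKM in vehicle tumors, without overlap. The FPKM totals over all genes did not overlap either, at 662528 to 710096 in DATS and 566304 to 656017 in vehicle tumors. The marker sums given here were not scaled to these totals. DATS tumor 1 had 2819 FPKM of luminal markers in a total of 710096, and vehicle tumor 1 had 2696 in 608193. As a share of the total, DATS tumor 1 lay below vehicle tumor 1, so that the groups overlapped for luminal markers on that scale. Summed myoepithelial and basal markers were 1545 to 3487 FPKM in DATS and 1268 to 2493 FPKM in vehicle tumors. Other cell types differed between single tumors. The 7 skeletal muscle markers with a row, of 8 listed, summed to 24.3 to 29.5 FPKM in DATS tumors and to 1244, 45.1 and 19.8 FPKM in vehicle tumors 1, 2 and 3. By the mean log2 level of each list, vehicle tumor 2 had the most fibroblast, macrophage and T and NK cell markers and the least luminal and myoepithelial ones. In bulk tumor RNA, fewer cells of a type and less RNA per cell cannot be told apart, and this applies to every gene below.

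None of the members was called between DATS and vehicle tumors. The test was limma on log2(FPKM + 1), over genes whose mean reached 1 FPKM, with a Benjamini-Hochberg adjusted p under 0.05 as the threshold. It kept 9 of the 10 members, Lgr5 lying below the filter. The count of called members was 0 of 9, beside 0% of all 13631 genes tested, and the lowest adjusted p of a member was 0.910, that of Wnt5b. At an unadjusted p under 0.05 there were 0 of the 9 members, beside 5.85% of all genes (797), 3.74% being higher and 2.11% lower in DATS tumors. A limma-voom fit of the recovered reads called 0 genes as well (704 at an unadjusted p under 0.05). The DATS and vehicle values overlapped for all 10 members, whereas the groups did not overlap for 12.2% of genes tested. Differences are given throughout as the mean log2(FPKM + 1) of DATS tumors minus that of vehicle tumors, a scale on which changes of low genes come out too small. Of the 9 tested members, 3 had a positive and 6 a negative difference, beside 49.2% and 50.8% of all genes, and their median was -0.018, beside -0.0048 for all genes.

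**Figure D1:**
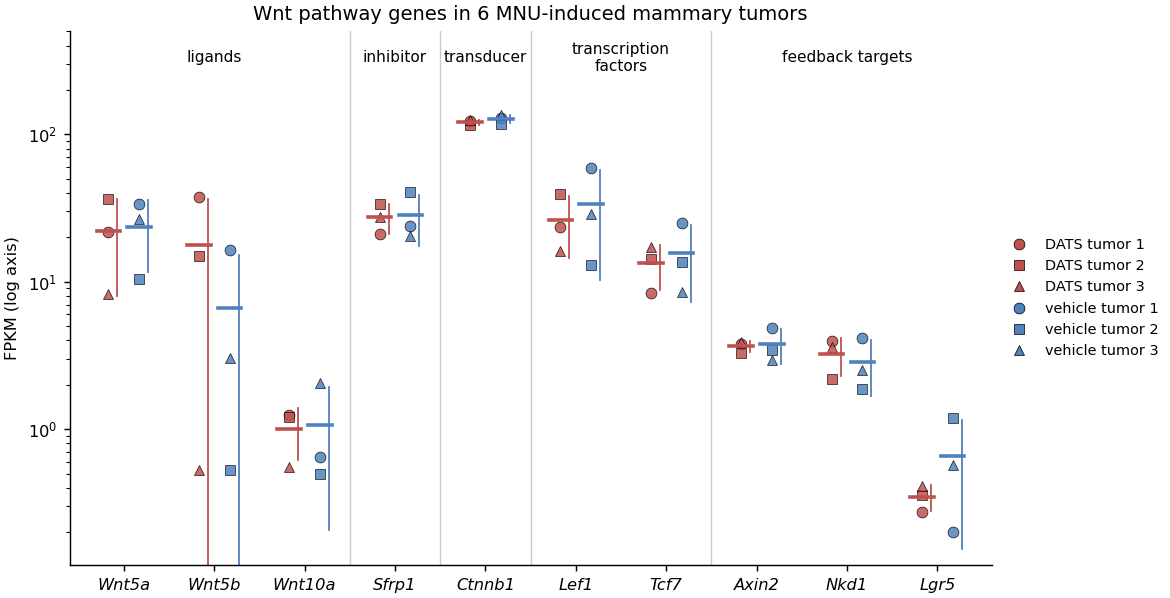
FPKM (log axis) of the 10 Wnt pathway genes in the 3 DATS tumors (red, left) and the 3 vehicle tumors (blue, right), with symbols for tumor number, thick bars for group means and thin bars for 1 SD on each side, drawn to the bottom of the axis where the mean minus the SD lies below it. Ctnnb1 lies between 115 and 135 FPKM in all tumors, whereas Wnt5b spans 0.526 to 37.5 FPKM, and the groups overlap for every gene.

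The members spanned a wide range of levels. Ctnnb1 had the highest mean over the 6 tumors, 124 FPKM, and lay above the next gene, Lef1, in 6 of 6 tumors without overlap of their ranges. Below it came Sfrp1 (27.9), Wnt5a (23.0), Tcf7 (14.5) and Wnt5b (12.2 FPKM), whose ranges overlapped with their neighbours; the higher gene of each such pair was higher in 2 to 4 of the 6 tumors. Axin2 averaged 3.71 and Nkd1 3.04 FPKM, with Axin2 the higher in 5 of 6 tumors. Nkd1 exceeded Wnt10a (1.03 FPKM) in 6 of 6 tumors, although their ranges overlapped, and Lgr5 had the lowest mean, 0.501 FPKM.

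Of the ligands, Wnt5b, a paralog of Wnt5a, varied most between tumors. It had 37.5, 14.99 and 0.530 FPKM in DATS tumors 1, 2 and 3, against 16.5, 0.526 and 3.03 FPKM in vehicle tumors 1, 2 and 3. DATS tumors 1 and 2 and vehicle tumor 1 were high, and DATS tumor 3 and vehicle tumor 2 were about equally low, so each group held tumors at both ends. The values rested on 19 reads in DATS tumor 3 and 20 in vehicle tumor 2, and on 1350 in DATS tumor 1. The highest tumor stood 71.2-fold above the lowest. The means were 17.7 ± 18.6 FPKM in DATS and 6.67 ± 8.57 FPKM in vehicle tumors (SD, n = 3 each), with a log2 difference of 1.04 ± 1.36 (SE) and a 95% confidence interval of -2.24 to 4.33 (limma adjusted p = 0.910). Leaving out DATS tumor 1 made the difference 0.06, and leaving out DATS tumor 3 made it 2.38. The within-group SD of Wnt5b, 2.11 on the log2 scale, was larger than that of 99.6% of genes tested.

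Wnt5a, which signals through Ror2 and which in the mouse gland restrains ductal growth downstream of TGF-beta, had 21.8, 36.7 and 8.23 FPKM in the DATS tumors, against 33.7, 10.5 and 26.7 FPKM in the vehicle tumors. DATS tumor 3 and vehicle tumor 2 were again the lowest tumors of their groups, and the groups overlapped. The log2 difference was -0.16 ± 0.62 (SE; 95% interval -1.64 to 1.32, limma adjusted p = 0.977), and it was 0.40 without DATS tumor 3 and 0.16 without vehicle tumor 1. Its within-group SD exceeded that of 93.6% of genes. Wnt10a, a ligand of the beta-catenin branch, had 1.25, 1.203 and 0.554 FPKM in DATS tumors, against 0.645, 0.495 and 2.05 FPKM in vehicle tumors. It rested on 18 to 73 reads per tumor, and vehicle tumor 3 was the highest. Its difference was 0.013 ± 0.37 (SE; 95% interval -0.87 to 0.90). Its sign was not stable, with -0.088 after scaling all tumors to the same FPKM sum, -0.11 and -0.18 without vehicle tumor 1 or 2, and -0.081 and -0.066 without DATS tumor 1 or 2.

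The make-up of the ligand transcripts differed from tumor to tumor. All 19 rat Wnt genes had a row and 9 passed the filter, of which 5 had a positive and 4 a negative difference, with a median of 0.01 and 0 called (lowest adjusted p = 0.865). Summed over the 19, ligand transcripts were 110, 128 and 91.3 FPKM in DATS tumors and 117, 54.3 and 110 FPKM in vehicle tumors. Vehicle tumor 2 had the lowest sum, less than the lowest DATS tumor. Wnt5b was the leading ligand in DATS tumor 1, with 34.0% of the sum, and Wnt5a led in DATS tumor 2 (28.7%), vehicle tumor 1 (28.9%) and vehicle tumor 2 (19.3%). Wnt4, which progesterone induces in mouse mammary epithelium, led in DATS tumor 3 (41.4%) and vehicle tumor 3 (27.3%). Wnt5b made up 0.581% in DATS tumor 3 and 0.970% in vehicle tumor 2, and the ratio of Wnt5b to Wnt5a ran from 0.0502 in vehicle tumor 2 to 1.72 in DATS tumor 1. Among the other ligands, Wnt4 had 26.6 ± 9.66 FPKM in DATS and 19.4 ± 11.2 FPKM in vehicle tumors (SD, n = 3 each; log2 difference 0.56 ± 0.49, SE). Wnt6 and Wnt7b had differences of -0.28 and 0.27. Wnt2, a ligand of stromal cells, had 0.484, 2.06 and 2.22 FPKM in DATS tumors and 1.07, 8.77 and 0.676 FPKM in vehicle tumors, and was thus highest in vehicle tumor 2, the tumor with the highest fibroblast markers. The part of cell make-up in this value was not tested.

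**Figure D2:**
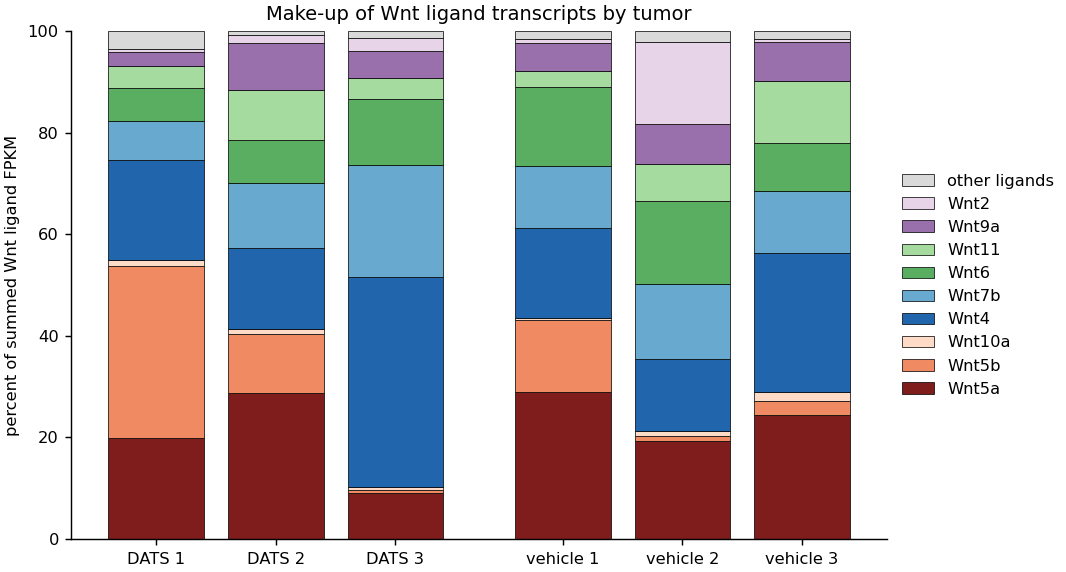
Percent of the summed FPKM of the 19 Wnt ligands (vertical axis) taken by each ligand in the 3 DATS tumors (left) and the 3 vehicle tumors (right), with ligands of small share pooled in gray. Wnt5b takes 34.0% in DATS tumor 1 and under 1% in DATS tumor 3 and vehicle tumor 2, and Wnt4 takes 41.4% in DATS tumor 3.

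Genes with a pattern like that of Wnt5b were looked up after its values had been seen, and are a description of 6 tumors with no test. Among 13630 other genes tested, the highest Pearson correlations of log2(FPKM + 1) with Wnt5b were those of Muc15 (0.997), which encodes a membrane mucin, Fzd7 (0.995), a Frizzled receptor, Eri3 (0.991), Prr27 (0.990) and Csn3 (0.990), which encodes kappa-casein of milk. A total of 251 genes exceeded 0.9. Csn3 had 2870, 590 and 7.50 FPKM in DATS tumors, against 1072, 20.3 and 58.7 FPKM in vehicle tumors. Its highest 3 tumors were those of Wnt5b, and its span over the tumors was wider than that of the ligand. Elf5, an Ets factor of alveolar luminal cells and one of the luminal markers listed, ranked 12th of the 13630 genes (r = 0.984). It had 74.5, 25.8 and 0.755 FPKM in DATS tumors, against 24.5, 1.42 and 2.18 FPKM in vehicle tumors. The luminal list as a whole did not follow Wnt5b. Its sum (4472 FPKM) and its mean log2 level were highest in DATS tumor 3, where Wnt5b was low. Tcf7l2, another TCF/LEF factor, ranked 51st (r = 0.963). It had 43.1, 27.1 and 12.3 FPKM in DATS tumors and 24.2, 9.76 and 20.1 FPKM in vehicle tumors. Fzd7 was at 16.6, 12.9 and 5.76 FPKM in DATS and at 14.0, 5.17 and 7.57 FPKM in vehicle tumors. The members Wnt5a and Lef1 followed Wnt5b less closely (r = 0.774 and 0.681). Nkd1 had an r of 0.448, and Tcf7, also a TCF/LEF factor, had one of -0.113.

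**Figure D3:**
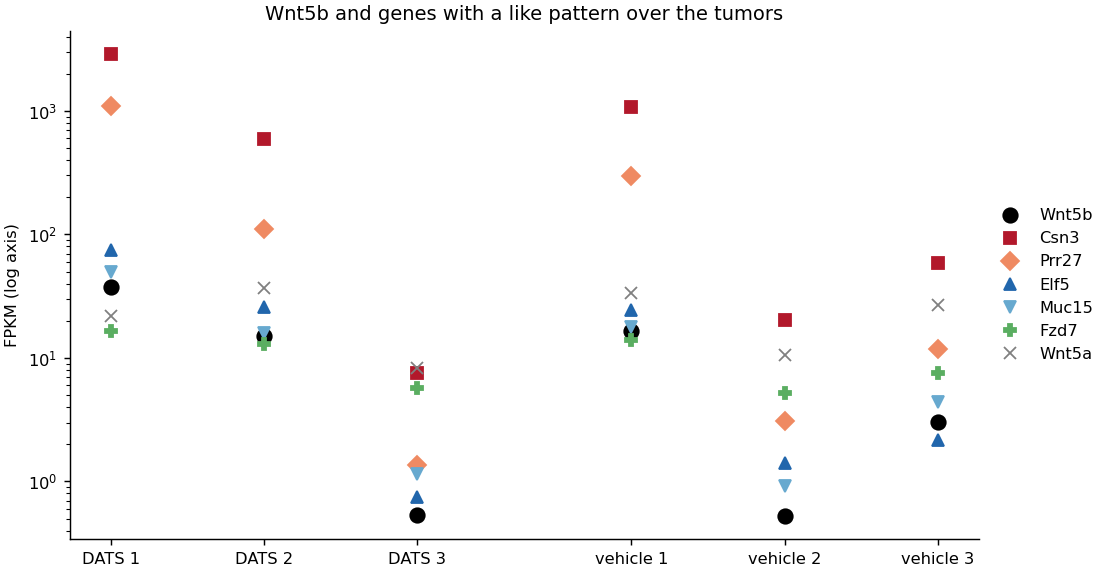
FPKM (log axis) of Wnt5b (black) and of Csn3, Prr27, Elf5, Muc15, Fzd7 and Wnt5a in the 3 DATS tumors (left) and the 3 vehicle tumors (right). Apart from Wnt5a, each of these genes is highest in DATS tumor 1 and has DATS tumor 2 and vehicle tumor 1 next, as Wnt5b does, and all are low in DATS tumor 3 and vehicle tumor 2.

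Sfrp1, a secreted decoy that binds Wnt ligands, had 21.2, 33.9 and 27.5 FPKM in DATS tumors, against 24.0, 40.5 and 20.4 FPKM in vehicle tumors. The highest and the lowest value both fell in the vehicle group. The log2 difference was -0.0018 ± 0.29 (SE; 95% interval -0.71 to 0.71), and leaving out vehicle tumor 2 or DATS tumor 1 made it positive (0.28 and 0.17). Of the 13 secreted inhibitors listed, 9 passed the filter, with 1 positive and 8 negative differences, a median of -0.17 and 0 called (lowest adjusted p = 0.871). In the same tumors 50.8% of all genes had a negative difference. Sfrp2 had 36.9 ± 8.46 FPKM in DATS and 28.3 ± 18.5 FPKM in vehicle tumors (SD, n = 3 each). Sfrp4, also a decoy, had 0.498, 1.21 and 5.65 FPKM in DATS tumors, against 3.11, 16.7 and 0.752 FPKM in vehicle tumors. Dkk2, which blocks the Lrp coreceptors, had 5.14, 12.99 and 6.29 FPKM in DATS tumors, against 5.16, 23.6 and 9.55 FPKM in vehicle tumors. Sfrp1, Sfrp4 and Dkk2 were each highest in vehicle tumor 2, in which fibroblast and matrix markers summed to 2147 FPKM, against 1084 to 1776 FPKM in DATS tumors and 1234 and 1742 FPKM in the other vehicle tumors. The part of those markers in these values was not tested. The other inhibitors that passed the filter were highest elsewhere. Frzb, Dkk4 and Wif1 were highest in vehicle tumor 1, and Sfrp2, Dkk3 and Kremen1 in DATS tumor 2. Dkk4 had a difference of -0.17 ± 0.18 (SE).

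Ctnnb1 had the narrowest spread of the members. It had 122.97, 115 and 124 FPKM in DATS tumors, against 129, 118 and 135 FPKM in vehicle tumors, so that its highest tumor was 1.18-fold above its lowest. DATS tumor 2 was lowest and vehicle tumor 3 highest, and the groups overlapped. The log2 difference was -0.08 ± 0.13 (SE), with a 95% interval of -0.38 to 0.23, the narrowest among the members (limma adjusted p = 0.931). It was -0.25 after scaling all tumors to the same FPKM sum, which put the median over all genes at -0.16, and -0.23 with quantile normalization. Of the genes tested, 2.77% had a smaller within-group SD. The messenger level says nothing of the amount or place of the beta-catenin protein, which is set mainly by its breakdown. Of the 10 transducers that passed the filter, 4 had a positive and 6 a negative difference (median -0.05), and 0 were called (lowest adjusted p = 0.819). Csnk1a1, a kinase that marks beta-catenin for destruction, had 122, 139 and 114 FPKM in DATS tumors, against 153, 142 and 155 FPKM in vehicle tumors. Its groups did not overlap, which held for 1 of the 10 transducers, beside 12.2% of all genes tested. The difference of Csnk1a1 was -0.26 ± 0.14 (SE; limma adjusted p = 0.819). Dvl1, a Dishevelled protein that relays the receptor signal, had 46.8 ± 6.90 FPKM in DATS and 36.8 ± 2.96 FPKM in vehicle tumors (SD, n = 3 each; difference 0.33 ± 0.16, SE). Dvl3 and Apc, a scaffold of the destruction complex, had differences of -0.20 and -0.16.

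Lef1 had 23.3, 39.3 and 16.3 FPKM in DATS tumors, against 59.0, 13.1 and 29.0 FPKM in vehicle tumors. Vehicle tumor 1 was the highest, and DATS tumor 3 and vehicle tumor 2, low for Wnt5a and Wnt5b, were the lowest. The log2 difference was -0.19 ± 0.56 (SE; 95% interval -1.55 to 1.16, limma adjusted p = 0.969). Leaving out vehicle tumor 1 or DATS tumor 3 turned its sign (0.32 and 0.094). Tcf7, a TCF/LEF factor that T cells express as well, had 8.397, 14.2 and 17.3 FPKM in DATS tumors, against 25.1, 13.7 and 8.56 FPKM in vehicle tumors, a difference of -0.16 ± 0.42 (SE; 95% interval -1.17 to 0.85). Vehicle tumor 1 was again the highest, and without it the difference was 0.22 (0.12 without DATS tumor 1). The 8 T and NK cell markers summed to 152, 361 and 401 FPKM in DATS tumors and to 178, 810 and 171 FPKM in vehicle tumors, with vehicle tumor 2 the highest, and their part in the Tcf7 values was not tested. Vehicle tumor 1, highest for Lef1 and Tcf7, was the one with skeletal muscle transcripts, and the part of that tissue in these values was not tested. Of 12 nuclear factors that passed the filter, 7 had a positive and 5 a negative difference, with a median of 0.13 and 0 called (lowest adjusted p = 0.820). Bcl9l, a coactivator of beta-catenin, had 13.4, 12.9 and 11.7 FPKM in DATS tumors, against 11.3, 6.66 and 10.7 FPKM in vehicle tumors, a difference of 0.40 ± 0.22 (SE). Its groups did not overlap, which held for 1 of the 12 nuclear factors, beside 12.2% of all genes tested. The corepressor Tle3, Tcf7l1 and Ctnnbip1, an inhibitor of beta-catenin, had differences of 0.31, 0.29 and 0.25.

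The highest tumor stood 1.64-fold above the lowest for Axin2, 2.19-fold for Nkd1 and 5.97-fold for Lgr5, against 4.13-fold to 71.2-fold for the ligands. Axin2, a scaffold that rebuilds the destruction complex, had 3.76, 3.29 and 3.89 FPKM in DATS tumors, against 4.86, 3.47 and 2.96 FPKM in vehicle tumors. The DATS tumors lay within the span of the vehicle tumors. The means were 3.65 ± 0.319 FPKM in DATS and 3.76 ± 0.986 FPKM in vehicle tumors (SD, n = 3 each), with a log2 difference of -0.018 ± 0.21 (SE) and a 95% interval of -0.53 to 0.49 (limma adjusted p = 0.992). A change of 1 on the log2 scale lies outside that interval. The difference depended on the scaling, with 0.065 under quantile normalization and -0.16 with equal FPKM sums, and its direction also turned without vehicle tumor 1 (0.14) or DATS tumor 2 (0.039). Nkd1, which binds Dishevelled and dampens the signal, had 3.95, 2.17 and 3.60 FPKM in DATS tumors, against 4.13, 1.88 and 2.51 FPKM in vehicle tumors. Vehicle tumor 1 was the highest for both genes. It was also the tumor with skeletal muscle transcripts, and the part of that tissue in these Axin2 and Nkd1 values was not tested. The difference of Nkd1 was 0.16 ± 0.30 (SE; 95% interval -0.56 to 0.88, limma adjusted p = 0.940), and -0.028 without vehicle tumor 2.

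Lgr5, a receptor for R-spondins that marks stem cells of several mouse epithelia, was near the detection limit. It had 0.274, 0.355 and 0.413 FPKM in DATS tumors, against 0.199, 1.19 and 0.574 FPKM in vehicle tumors, from 12, 15 and 18 reads in DATS and 11, 55 and 26 reads in vehicle tumors. The DATS tumors lay within the span of the vehicle tumors, and vehicle tumor 2 was the highest. The difference of -0.25 had no test with the filter, and without the filter its limma adjusted p was 0.870. Vehicle tumor 2 also had the lowest luminal markers and the most fibroblast and T cell markers, and their part in its Lgr5 value was not tested. The other genes that carry R-spondin signals included Lgr6, with a difference of 0.24 ± 0.42 (SE), and Rspo4, which had 4.37, 6.47 and 3.66 FPKM in DATS tumors, against 29.7, 1.28 and 8.45 FPKM in vehicle tumors. Of 6 genes of R-spondins and their receptors that passed the filter, 2 had a positive and 4 a negative difference (median -0.13), and 0 were called (lowest adjusted p = 0.868).

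The promoters of members that hold a match to the TCF/LEF core are shown, because beta-catenin acts through TCF/LEF sites. RefSeq promoters of assembly GRCr8, 250 bases before to 50 after the start listed there, were found for 7 of the 10 members, without Lgr5, Wnt5b and Sfrp1. They were searched on both strands for the TCF/LEF core, spelled CTTTGNN with each N being A or T. At least 1 match stood in 3 of the 7, Axin2, Nkd1 and Tcf7, and in 17.1% of all 33469 promoters of the same length. Lef1, also listed as a beta-catenin target, had 0 matches, as did Ctnnb1, Wnt5a and Wnt10a. Axin2 had 2 matches, which 2.12% of all promoters reach. The matches lie on the gene strand and begin at -232 and -132 in Axin2, at -141 in Nkd1 and at -4 in Tcf7, counted from the start. In these sequences, 5′ to 3′ on the gene strand, capitals mark the matches. Axin2 is at chr10:94398535-94398834 (plus strand), Nkd1 at chr19:34722797-34723096 (minus strand) and Tcf7 at chr10:36954230-36954529 (minus strand).
Axin2: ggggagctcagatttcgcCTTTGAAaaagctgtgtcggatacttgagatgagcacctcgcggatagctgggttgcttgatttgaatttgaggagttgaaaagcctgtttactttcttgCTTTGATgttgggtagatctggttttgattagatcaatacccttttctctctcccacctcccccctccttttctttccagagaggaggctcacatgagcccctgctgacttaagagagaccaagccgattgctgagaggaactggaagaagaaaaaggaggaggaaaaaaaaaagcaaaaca
Nkd1: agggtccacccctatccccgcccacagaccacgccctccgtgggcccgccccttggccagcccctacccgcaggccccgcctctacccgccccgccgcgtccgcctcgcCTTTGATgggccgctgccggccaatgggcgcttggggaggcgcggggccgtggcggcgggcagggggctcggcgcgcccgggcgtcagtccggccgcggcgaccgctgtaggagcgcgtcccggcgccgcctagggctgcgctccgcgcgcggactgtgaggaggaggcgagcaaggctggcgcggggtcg
Tcf7: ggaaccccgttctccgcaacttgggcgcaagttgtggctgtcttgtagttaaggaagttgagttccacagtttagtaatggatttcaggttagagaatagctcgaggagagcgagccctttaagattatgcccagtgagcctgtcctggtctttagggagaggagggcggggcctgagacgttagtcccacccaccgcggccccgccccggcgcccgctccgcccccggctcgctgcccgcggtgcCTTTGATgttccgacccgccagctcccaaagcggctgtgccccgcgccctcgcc
The Nkd1 window was rich in CpG, with 44 CpG pairs and 79.3% G and C, whereas that of Axin2 had 5 and 45.7%. A match is a description of these letters and shows no binding.

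Ligands were compared with feedback targets over the 6 tumors through the correlations of log2(FPKM + 1) in 15 pairs, of which 9 joined a ligand and a target. No pair passed after adjustment over the 15 (lowest adjusted exact permutation p = 0.333 for Pearson's r and 0.438 for Spearman's rho). For the ligand-target pairs r ran from -0.73 to 0.45 with a median of -0.12, and 4 of 9 were above 0. Wnt5a had an r of 0.02 with Axin2 and 0.08 with Nkd1 (exact permutation p = 0.989 and 0.847). Wnt5b had an r of 0.28 with Axin2 (exact permutation p = 0.625) and 0.45 with Nkd1 (0.336). With Wnt10a, Axin2 had an r of -0.63 (exact permutation p = 0.172). The lowest unadjusted p of a ligand-target pair was that of Wnt5b and Lgr5, with an r of -0.73 (exact permutation p = 0.0750) and a rho of -0.89 (0.0333, adjusted 0.438). Without DATS tumor 3 and vehicle tumor 2, the tumors farthest from the median of Wnt5b, that r was -0.84. Lgr5, below the filter, had only 11 to 26 reads in the tumors left.

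Among the targets, Axin2 and Nkd1 had an r of 0.74 (exact permutation p = 0.0722, adjusted 0.333; rho 0.71, p = 0.136), which was 0.87 without vehicle tumors 1 and 3 and 0.78 for deviations from the group means. Lgr5 went the other way: its r was -0.78 with Nkd1 (exact permutation p = 0.05, adjusted 0.333; rho -0.83, p = 0.0583) and -0.50 with Axin2 (0.267). Without vehicle tumors 1 and 2 the r of Nkd1 and Lgr5 was -0.46. Among the ligands, Wnt5a and Wnt5b had an r of 0.77 (exact permutation p = 0.0889, adjusted 0.333; rho 0.54, p = 0.297). It was 0.66 to 0.93 when 1 tumor at a time was left out, and -0.18 over the 4 tumors left without DATS tumor 3 and vehicle tumor 2, the lowest tumors for both genes. Wnt5a and Wnt10a had an r of 0.58 (exact permutation p = 0.222), which was 0.44 to 0.82 without 1 tumor and -0.43 over the same 4 tumors.

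**Figure D4:**
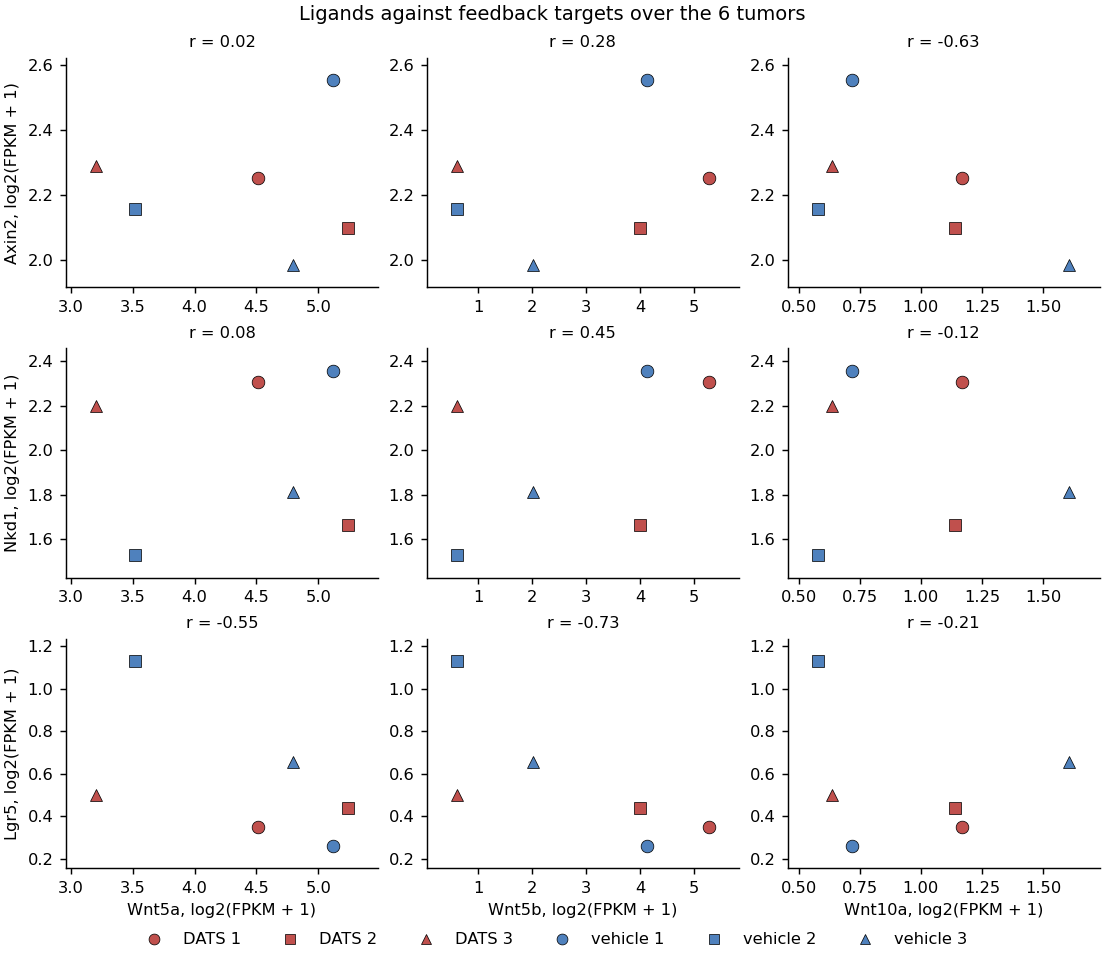
Log2(FPKM + 1) of the feedback targets Axin2, Nkd1 and Lgr5 (vertical axes) against that of the ligands Wnt5a, Wnt5b and Wnt10a (horizontal axes), 1 point for each of the 3 DATS (red) and 3 vehicle (blue) tumors, with Pearson's r above each panel. The r values run from -0.73 (Wnt5b and Lgr5) to 0.45 (Wnt5b and Nkd1), and the colors are mixed along both axes.

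For the genes whose pattern over the 6 tumors was most like that of Axin2, Pearson's r was highest for Brca1 (0.995), Traip (0.993), Lyar (0.992), Eif2s1 (0.991) and Col6a6 (0.982) among 13630 genes, of which 145 exceeded 0.9. These correlations are a description of 6 tumors with no test. Brca1 had 1.73, 1.10 and 2.04 FPKM in DATS tumors, against 3.22, 1.44 and 0.810 FPKM in vehicle tumors. Of the other TCF/LEF-linked members, Tcf7 ranked 737th (r = 0.758), Nkd1 806th (0.743) and Lef1 3149th (0.377).

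Over the wider pathway, 87 of 91 listed symbols had a row, and 64 genes passed the filter. Of these, 28 had a positive and 36 a negative difference, with a median of -0.03, and 0 were called, beside 0% of all genes (lowest adjusted p = 0.819). At an unadjusted p under 0.05 there were also 0, beside 5.85% of all genes. After scaling all tumors to the same FPKM sum, which put the median over all genes at -0.16, the split was 17 positive to 47 negative, with a pathway median of -0.19. Groups without overlap were seen for 2 of the 64, Csnk1a1 and Bcl9l, beside 12.2% of all genes. Of the 11 receptors, 5 had a positive and 6 a negative difference, with Fzd7 at 0.36, Fzd3 at 0.13, Fzd6 at -0.18 and Fzd2 at 0.11. Ror2, the receptor of Wnt5a, had 14.6 ± 5.62 FPKM in DATS and 13.4 ± 4.27 FPKM in vehicle tumors (SD, n = 3 each). The secretion factors Wls and Porcn, needed for the export of Wnt proteins, had differences of -0.18 and 0.03. Of the 11 beta-catenin targets tested, 4 had a positive and 7 a negative difference (median -0.08, lowest adjusted p = 0.819). Apcdd1, a membrane inhibitor of Wnt signaling, had the smallest unadjusted p of the pathway, 0.0508 in limma, with 8.75, 4.98 and 4.19 FPKM in DATS tumors, against 12.6, 8.66 and 8.58 FPKM in vehicle tumors. DATS tumor 1 lay just inside the vehicle span, and the difference was -0.69 ± 0.29 (SE; adjusted p = 0.819). Tnfrsf19, Cd44 and Rnf43, a ubiquitin ligase that removes Frizzled receptors, had differences of 0.43, -0.67 and -0.29.

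**Figure D5:**
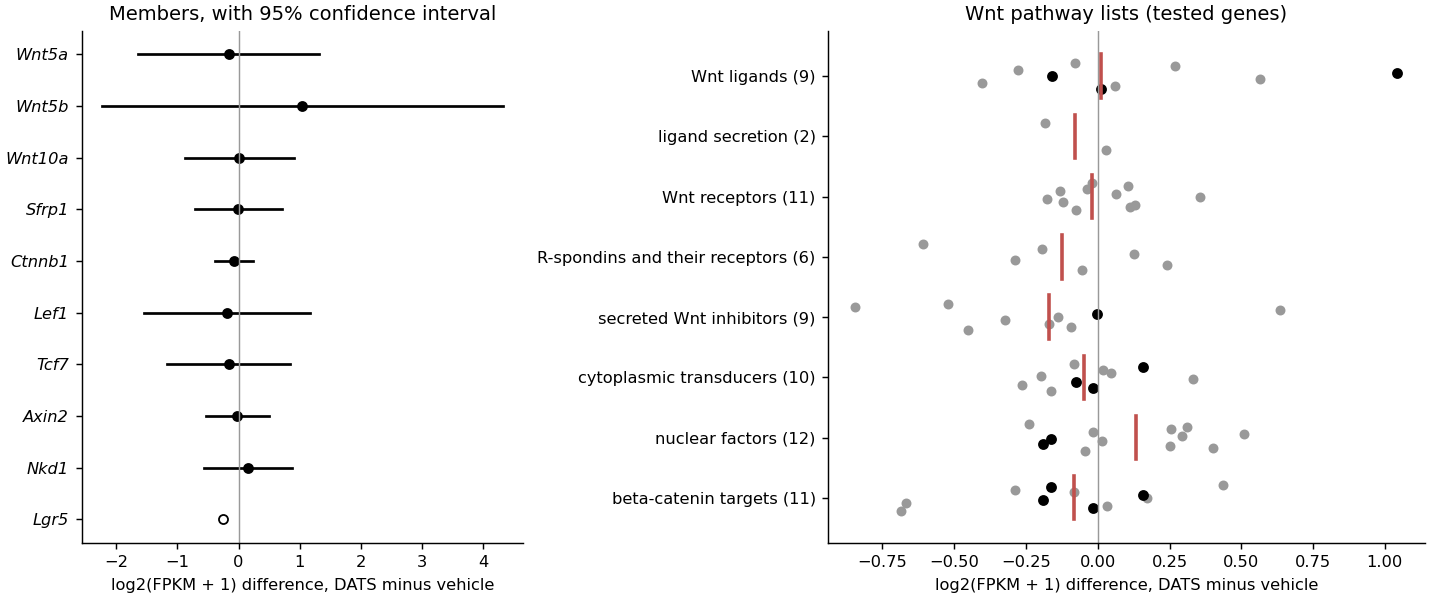
Differences in log2(FPKM + 1), DATS minus vehicle. Left, the 10 members with 95% confidence intervals (Lgr5, open, had no test); right, the tested genes of each pathway list (number in parentheses), with members in black and list medians as red bars; a gene may stand in more than 1 list. Every interval crosses 0, that of Wnt5b being the widest (-2.24 to 4.33) and that of Ctnnb1 the narrowest (-0.38 to 0.23).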

How the data were processed

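RNA sequencing of 6 rat mammary tumors (3 DATS, 3 vehicle) was deposited by the authors as FPKM per gene and tumor, per the file headers. The aligner, counter, build, annotation and strand handling were not given in the sources used here. Overlapping and antisense genes may therefore share reads. Whole reads, within 0.0001, were recovered from the FPKM steps for 100.0% of 20891 genes above 0. FPKM totals ranged from 566304 to 710096. Genes whose mean reached 1 FPKM were tested on log2(FPKM + 1) with limma 3.58.1 in R 4.3.3 (lmFit, eBayes with trend, two-sided, no covariate), with adjustment over all 13631 genes. Correlations were tested by exact permutation of 720 pairings, two-sided (smallest possible p 0.00278). The recovery and the fit were tested on simulated data. The alternatives were a pseudocount of 0.1, no filter, equal totals, quantile normalization, a replicate block, leaving out each tumor and limma-voom. Named pathway genes were up to 4 per list with the smallest p. The members and lists were chosen with earlier results of these data known. Fzd10, Znrf3, Axin1 and Dvl2 were not analysed here. Python 3.11.15, pandas 2.3.3 and scipy 1.17.1 were used.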

Additional observations from a re-analysis of the deposited data

How the results depend on the processing

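Across the alternatives 0 genes were called, in the whole table and among the Wnt pathway genes. Axin2 turned to 0.065 with quantile normalization and Wnt10a to -0.088 with equal totals, and the signs of the other tested members stayed as reported under the other settings that kept all 6 tumors. With equal totals, which put the median over all genes at -0.16, Axin2 was at -0.16, Nkd1 at 0.024, Sfrp1 at -0.17, Ctnnb1 at -0.25, Tcf7 at -0.33 and Lef1 at -0.37. The medians of the Wnt ligands and the nuclear factors, 0.013 and 0.13 as reported, were then -0.095 and -0.038. Leaving out 1 tumor at a time gave log2 differences of -0.14 to 0.14 for Axin2, -0.028 to 0.39 for Nkd1, -0.46 to -0.03 for Lgr5, -0.72 to 0.32 for Lef1, -0.51 to 0.22 for Tcf7, -0.13 to -0.03 for Ctnnb1, -0.64 to 0.40 for Wnt5a, 0.06 to 2.38 for Wnt5b, -0.18 to 0.33 for Wnt10a and -0.20 to 0.28 for Sfrp1. It gave an r of -0.63 to 0.21 for Wnt5a and Axin2, -0.36 to 0.42 for Wnt5a and Nkd1, -0.62 to 0.087 for Wnt10a and Nkd1 and -0.52 to 0.61 for Wnt10a and Lgr5. The cause was not tested. The genes at an unadjusted p under 0.05, 797 with all tumors, were 428 without DATS tumor 2 and 1221 without DATS tumor 1, and those of the pathway, 0 as reported, were 2 with equal totals and at most 2 under any other setting. The correlation of deviations of same-numbered tumors was 0.15, -0.02 and -0.12 for numbers 1, 2 and 3. Tumors of unlike number had values of -0.23 to 0.27. With 3 tumors per group these values cannot decide whether the numbers pair the tumors. With the replicate block 0 genes were called and 594 had an unadjusted limma p under 0.05. At 11 to 55 reads for Lgr5 and 18 to 73 for Wnt10a, small differences were not detectable at this depth.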

Other observations

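Some Wnt ligands and targets below the filter had reads in 1 to 3 of the 6 tumors. Wnt16 had 50 reads (2.15 FPKM) in DATS tumor 1, against 7 in vehicle tumor 1 and 25 in vehicle tumor 3, and it was listed at 0 in DATS tumors 2 and 3 and vehicle tumor 2. Wnt10b had 7 reads, all in vehicle tumor 3, and Wnt1 and Wnt3a had 1 and 2 reads, all in DATS tumor 3. The beta-catenin target Notum, an enzyme that inactivates Wnt proteins, had 20 and 5 reads in DATS tumors 2 and 3, against 4 in vehicle tumor 1, and was listed at 0 in the other tumors. Sp5, also a target of beta-catenin, had 7 and 2 reads in DATS tumors 1 and 2, against 4 in vehicle tumor 1. Wif1, an inhibitor that binds Wnt proteins, passed the filter and was highest in vehicle tumor 1, with 2.55, 0.892 and 0.417 FPKM in DATS tumors, against 10.5, 0.212 and 1.02 FPKM in vehicle tumors. The part of the skeletal muscle in that tumor was not tested.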
